A study of Mus musculus with 6 samples.

Results

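The pancreatic carboxypeptidases, amylases and ribonuclease are the digestive enzymes of acinar cells that cut protein ends, starch and RNA. The genes considered were Cpa1, Cpb1, Amy1, Amy2b, Amy2a5 and Rnase1, and their probes were taken by the gene name that the array files give, older and newer symbols included. Of these 6 genes, 5 had a probe, with 6 probes in all, out of 14124 genes and 24820 probes that were tested. No probe carried the name of Amy2b, whose older symbols are shared with other genes, so Amy2b was not measured here. Amy2a5 had 2 probes, and the brighter of them leads below.

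Whole pancreas was taken from C57BL/6N mice at postnatal day 0.5, and its total RNA was read on single-colour Agilent arrays, 2 for each of 3 genotypes. Spink3+/+ is the wild type control. In the Spink3-/- pancreas all acinar cells are, by the study's design, dying without apoptosis and with autophagy, and in Spink3-/-XKI/+ only some of them are. The labels do not say what XKI stands for. All 3 genotypes share strain, age and tissue, and the tissue is the whole organ and not sorted acinar cells. Whether the 2 samples of each genotype came from different animals is not in the labels, so the p-values measure the spread between these samples alone, and that spread may be technical.

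Acinar cells make these enzymes in bulk, pack them into zymogen granules and release them into the gut. The carboxypeptidases are stored as inactive proenzymes that trypsin activates, while amylase and ribonuclease are made as active enzymes. Spink3 is the trypsin inhibitor stored in the same granules, and its loss takes away a brake on trypsin, the protease that starts the activation of the other proenzymes.

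Each value is read by a probe of 60 bases, and the probe sequences decide what can be told apart. The probes of the salivary type amylase Amy1 and the pancreatic amylase Amy2a5 are shown because their sequences are largely alike. Aligned without gaps they overlap over 46 bases, of which 39 are identical, and the 7 that differ are in capitals.
Amy1 probe: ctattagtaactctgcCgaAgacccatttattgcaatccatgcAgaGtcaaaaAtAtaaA
Amy2a5 probe: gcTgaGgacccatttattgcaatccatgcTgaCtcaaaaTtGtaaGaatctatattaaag
The longest run of bases that both hold is 23 bases. Whether RNA of one amylase bound to the probe of the other was not tested.

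The dimmer Amy2a5 probe is shown because it is not particular to that gene, since the array files list transcripts of Amy1 beside those of Amy2a5 for it. The Cpa1 probe is shown as the contrasting case.
Amy2a5 dimmer probe: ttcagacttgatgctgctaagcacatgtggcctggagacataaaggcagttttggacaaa
Cpa1 probe: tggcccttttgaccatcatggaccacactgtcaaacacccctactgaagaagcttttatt
The Cpa1 probe shared no run above 6 bases with the other member probes in the best ungapped alignment of each pair. The sequences are those of the deposited scanner files, in the 5′ to 3′ direction.

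In the array annotation, which uses the mouse build mm9, the Cpa1 probe lies at chr6:30595240-30595299 on the plus strand. The other probes lie on minus strands. They are Cpb1 at chr3:20149467-20149526, Amy1 at chr3:113258901-113258960, Amy2a5 at chr3:113084781-113084840 and chr3:113091400-113091459, and Rnase1 at chr14:51764724-51764783. Exon and intron positions on that build were not analysed here. In the RefSeq promoter table of build GRCm38.p6, Amy2a5 stands among further copies of pancreatic amylase on chromosome 3. Aligned without gaps, its promoter and those of Amy2a2, Amy2a3 and Amy2a4 were identical over all 162 aligned bases. That of Amy2a1 was identical over 161 of 162. The Amy2b promoter, over a longer overlap, matched at 160 of 300 bases, and an alignment with gaps was not made. Which of these copies the Amy2a5 probes read was not tested.

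Across arrays, the correlation of all tested probes was between 0.971 and 0.984, and the 6 arrays shared 1 slide. Precision is limited by the small number of arrays. Spink3, the targeted gene, had log2 levels of 9.84 and 10.26 in Spink3+/+, 3.25 and 2.95 in Spink3-/-, and 2.64 and 2.34 in Spink3-/-XKI/+. A level is the log2 of the processed signal minus the array's 75th percentile, so 0 is that percentile, and levels of different probes are not comparable. With 2 arrays per genotype, Spink3 fell by 6.95 from Spink3+/+ to Spink3-/- (SE 0.24, limma adjusted p = 0.0021). From Spink3+/+ to Spink3-/-XKI/+ it fell by 7.56 (SE 0.24, limma adjusted p = 0.0013). Between the genotypes that lack Spink3 its difference was -0.61 (limma adjusted p = 0.738). The sources used here do not say whether its probe lies in the deleted stretch.

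None of the 6 member probes passed the test in any of the 3 comparisons. Their levels in the pancreas with dying acinar cells lay within a log2 difference of 0.15 of the control, in either direction. For each of the 6 probes the range of the 3 genotype means was smaller than the pooled SD between arrays of one genotype. In whole-organ RNA, fewer cells of a type and less RNA per cell cannot be told apart.

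Cpa1 encodes carboxypeptidase A1, which removes aromatic and aliphatic residues from the C-terminal end of peptides. Its log2 level was 10.97 and 11.27 in Spink3+/+, 10.87 and 11.40 in Spink3-/-, and 11.05 and 11.09 in Spink3-/-XKI/+. The lowest and the highest array were both Spink3-/-, so all 3 groups overlapped. The order of the means was 11.13 in Spink3-/-, 11.12 in Spink3+/+ and 11.07 in Spink3-/-XKI/+, with SDs of 0.38, 0.21 and 0.03, so neighbours in that order did not differ beyond their spread.

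Cpb1 encodes carboxypeptidase B1, which removes the basic residues lysine and arginine, the ends that trypsin leaves. Its level was 10.37 and 10.56 in Spink3+/+, 10.31 and 10.34 in Spink3-/-, and 10.54 and 10.12 in Spink3-/-XKI/+. Both Spink3-/- arrays were below both Spink3+/+ arrays, while the Spink3-/-XKI/+ arrays lay apart, one of them below both Spink3-/- arrays and the other between the Spink3+/+ arrays. The means were 10.47, 10.33 and 10.33 with SDs of 0.13, 0.02 and 0.30.

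Amy1 encodes the amylase known from salivary gland and liver. Its level was 10.29 and 10.28 in Spink3+/+, 10.20 and 10.56 in Spink3-/-, and 10.28 and 10.26 in Spink3-/-XKI/+. The Spink3+/+ and Spink3-/-XKI/+ arrays lay close together, and the Spink3-/- arrays lay on either side of them. The means were 10.29, 10.38 and 10.27 in Spink3+/+, Spink3-/- and Spink3-/-XKI/+. Of the other 10 salivary gland markers listed, such as Bpifa2, Dcpp1 and Pip, only Smr2 had a probe above background often enough to be tested.

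Amy2a5 encodes pancreatic alpha-amylase, which cuts the internal bonds of starch. Its brighter probe read 11.08 and 11.19 in Spink3+/+, 10.92 and 11.42 in Spink3-/-, and 11.02 and 11.28 in Spink3-/-XKI/+. As for Cpa1, both extremes were Spink3-/- arrays. The genotype means, 11.13, 11.17 and 11.15, spanned 0.04 against a pooled SD of 0.24.

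The dimmer Amy2a5 probe read 10.50 and 10.64 in Spink3+/+, 10.22 and 10.63 in Spink3-/-, and 10.60 and 10.55 in Spink3-/-XKI/+. It was lowest on replicate 1 of Spink3-/-, as the brighter probe was. The log2 gap between the brighter and the dimmer probe was 0.58 and 0.54 in Spink3+/+, 0.70 and 0.79 in Spink3-/-, and 0.42 and 0.73 in Spink3-/-XKI/+, so the probes did not follow each other exactly.

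Rnase1 encodes the secreted pancreatic ribonuclease that digests RNA. Its level was 5.64 and 6.12 in Spink3+/+, 6.03 and 5.85 in Spink3-/-, and 6.22 and 5.64 in Spink3-/-XKI/+. Its arrays were the most spread of the 6 probes, with a pooled SD of 0.32, and all groups overlapped. Its genotype means of 5.88, 5.94 and 5.93 spanned 0.06.

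**Figure D1:**
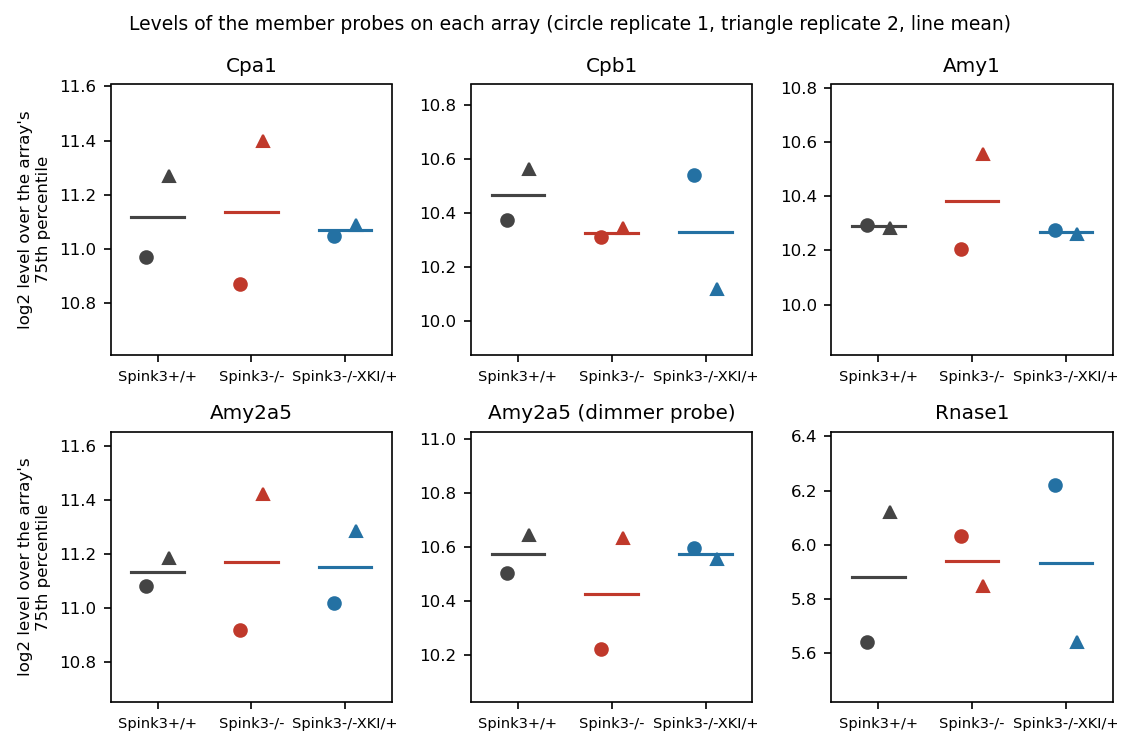
Log2 level relative to the 75th percentile of its array (vertical axis, 1 log2 unit tall in each panel) of the 6 member probes by genotype (horizontal axis); circles are replicate 1, triangles replicate 2 and lines the mean of the 2 arrays. For Amy2a5 (brighter probe) and Rnase1 the arrays of each genotype are further apart than the 3 means, and for Cpa1 the Spink3-/- arrays lie at 10.87 and 11.40 while the 3 means lie between 11.07 and 11.13.

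The comparison of Spink3-/- with Spink3+/+ asks what accompanies the death of all acinar cells. Cpa1 differed by 0.02 (SE 0.24) and Cpb1 by -0.14 (SE 0.21) on the log2 scale. Amy1 differed by 0.09 (SE 0.19), the brighter Amy2a5 probe by 0.04 (SE 0.23), the dimmer one by -0.15 (SE 0.20) and Rnase1 by 0.06 (SE 0.27). The limma adjusted p was between 0.992 and 0.999 for the 6 probes, with 2 arrays per group. Called were 0 of 6 member probes, beside 0.0443% of all tested probes, which is 11 of 24820. The groups did not overlap for 1 member probe, Cpb1, against 32.1% of all tested probes.

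The 95% intervals show what size of change in scaled signal these arrays could miss. For Cpa1 the interval of the fold in Spink3-/- over Spink3+/+ ran from 0.676 to 1.51, and for Cpb1 from 0.637 to 1.29. Over the 6 probes the lowest bound was 0.637 and the highest 1.65, the latter for Rnase1. In this fit, which has no term for the slide row, a loss of signal below 0.637-fold lay outside the interval of every member probe. The bounds concern signal, and whether the signal of the brightest probes stays proportional to RNA was not tested.

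In Spink3-/-XKI/+ against Spink3+/+ the same enzymes differed by -0.05 for Cpa1 (SE 0.24), -0.14 for Cpb1 (SE 0.21) and -0.02 for Amy1 (SE 0.19). The brighter Amy2a5 probe differed by 0.02 (SE 0.23), the dimmer one by 0.00 (SE 0.20) and Rnase1 by 0.05 (SE 0.27). Called were 0 of 6 member probes, beside 0.00806% of all tested probes, and the limma adjusted p was at least 0.916. The groups did not overlap for Amy1 alone, against 41.7% of all tested probes. The lowest and highest bounds of the fold were 0.639 and 1.65. The comparison shares its control arrays with the one before.

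In Spink3-/-XKI/+ against Spink3-/-, which asks where the partly normal pancreas lies, Cpa1 differed by -0.07 (SE 0.24), Amy1 by -0.11 (SE 0.19) and the dimmer Amy2a5 probe by 0.15 (SE 0.20). Cpb1, the brighter Amy2a5 probe and Rnase1 differed by at most 0.02 in either direction. Called were 0 of 6 member probes, beside 0% of all tested probes, and the limma adjusted p was at least 0.988. The groups overlapped for all 6 member probes, where 32.4% of all tested probes did not overlap. At an unadjusted p under 0.05, limma gave 1614 of the 24820 probes and 0 of the 6, whose lowest unadjusted p was 0.496.

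**Figure D2:**
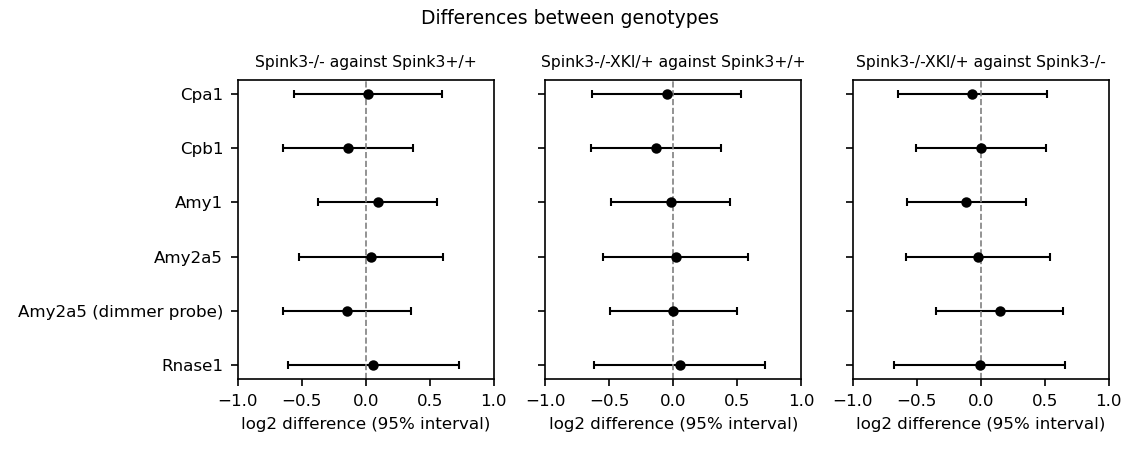
Log2 difference of each member probe (vertical axis) in the 3 comparisons of genotypes (panels), with the 95% interval from limma as a bar and a dashed line at 0. All 18 intervals include 0, the point values lie between -0.15 and 0.15, and the highest bound, for Rnase1 in Spink3-/- against Spink3+/+, is 0.73.

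The size of the member differences was small beside that of all tested probes. The median absolute log2 difference of the 6 probes was 0.08, 0.03 and 0.04 in the comparisons in the order above, and that of all tested probes was 0.17, 0.19 and 0.18. The median signed difference was 0.03, -0.01 and -0.01 for the members and 0.01, 0.05 and 0.04 for all tested probes. Of all tested probes, 44.5%, 37.5% and 43.8% differed by less than the largest member difference. All tested probes include many dimmer ones. Among the 66 with a signal of at least 100000 on every array, 5 of them member probes, the median span of the level was 1.35-fold, against 1.56-fold for all. No comparison with probes of like brightness was made.

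The arrays lay in 2 rows of the slide, and within a row the members differed in another way. In row 1, which held both Spink3+/+ arrays and replicate 1 of Spink3-/-, that Spink3-/- array was lower than the Spink3+/+ mean for 5 of 6 probes, by 0.25 for Cpa1, 0.16 for Cpb1, 0.08 for Amy1, 0.21 and 0.35 for the Amy2a5 probes, while Rnase1 was higher by 0.15. In row 2, the mean of the Spink3-/-XKI/+ arrays was lower than replicate 2 of Spink3-/- for 5 of 6 probes, with differences from -0.33 for Cpa1 to 0.08 for Rnase1. In scaled level, replicate 2 of Spink3-/- was higher than replicate 1 for 5 of 6 probes. The difference was 0.53 for Cpa1, 0.50 and 0.41 for the Amy2a5 probes, 0.35 for Amy1 and 0.03 for Cpb1. Spink3-/- is the only genotype with arrays in both rows, and each within-row value rests on 1 Spink3-/- array, so row and replicate cannot be told apart. These Spink3-/- arrays also had the highest 75th percentile, 155 on replicate 1, and the lowest, 111 on replicate 2. Their unscaled signal was 290391 and 300340 for Cpa1 and 301047 and 305126 for the brighter Amy2a5 probe. For the other probes the unscaled signal was lower on replicate 2 than on replicate 1. It was 183283 and 167573 for Amy1, and 185424 and 176310 for the dimmer Amy2a5 probe. For Cpb1 it was 197115 and 144337, and for Rnase1 10165 and 6394. The part of the scaling in these differences was not tested. With slide row as a block, Spink3-/-XKI/+ against Spink3+/+, which then meet through Spink3-/- alone, differed by -0.58 for Cpa1, -0.37 for Amy1 and -0.48 for the brighter Amy2a5 probe (limma adjusted p = 0.789, 0.866 and 0.833), in place of -0.05, -0.02 and 0.02.

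The unscaled signals give a further view of the brightest probes. The processed signal of the brighter Amy2a5 probe lay between 293887 and 305126 on the 6 arrays, a span of 1.04-fold, whereas the 75th percentile to which it was scaled ran from 111 on replicate 2 of Spink3-/- to 155 on replicate 1, a span of 1.40-fold. After scaling, its level spanned 1.42-fold and was highest on the array with the lowest percentile and lowest on the array with the highest. The unscaled signal spanned 1.23-fold for Cpa1, 1.27-fold for Amy1, 1.24-fold for the dimmer Amy2a5 probe, 1.61-fold for Cpb1 and 1.79-fold for Rnase1, the dimmest of them.

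Very bright probes as a class varied less in unscaled signal. Of the tested probes, 66 had a signal of at least 100000 on every array, the 5 member probes other than Rnase1 among them, and the median span of their unscaled signal was 1.22-fold against 1.35-fold after scaling. For the 2720 probes between 1000 and 10000 on every array, the range that holds most Rnase1 values, the spans were 1.43-fold and 1.37-fold. No spot was marked as saturated, and the raw signal of the brighter Amy2a5 probe was 33.2% to 33.9% of the scanner's saturation value. On every array that probe was brighter than the brightest of the 10 spike-in probes, and Cpa1 was on 4 of them. Whether the signal stays proportional to the RNA at this brightness was not tested.

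**Figure D3:**
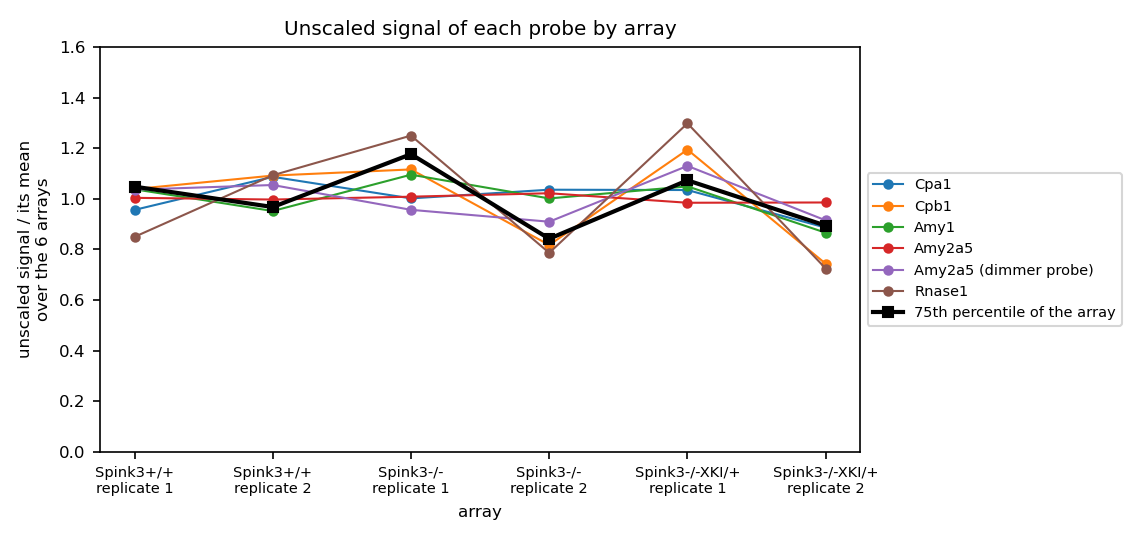
Unscaled processed signal of each member probe divided by its own mean over the 6 arrays (vertical axis, no unit, from 0) on each array (horizontal axis), with the 75th percentile of the array drawn the same way in black; lines only join the values of one probe. The brighter Amy2a5 probe is nearly flat, with a span of 1.04-fold, while the percentile spans 1.40-fold and Rnase1 1.79-fold.

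Across the 6 arrays the levels of some members varied together. Pearson's r was 0.86 between Cpa1 and the brighter Amy2a5 probe, 0.81 between Cpa1 and Amy1, 0.79 between Amy1 and Amy2a5, and 0.69 between the Amy2a5 probes. Cpb1 and Rnase1 had r = 0.77, while Cpa1 and Cpb1 had 0.20, Cpa1 and Rnase1 0.04, and Amy2a5 and Rnase1 -0.43. All points share the scaling of their array, so these values describe the 6 arrays alone. The unscaled signal of the brighter Amy2a5 probe spanned 1.04-fold and the 75th percentile 1.40-fold, so its level follows mainly that percentile. How much of its r values comes from the shared scaling was not tested.

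The genes whose levels followed each member best over the 6 arrays were named by r among genes at least 0.5 times as variable, between 10914 and 12396 of them. For Cpa1 they were Sycn, which encodes the zymogen granule protein syncollin (r = 0.985), Qsox1 (0.984) and Racgap1 (0.983). For Cpb1 they included Lamtor5 (0.980) and Erich5 (0.972), and for Amy1 they were Phf12 (0.993), Ccar2 (0.993) and Rab27a (0.992). For Amy2a5 they were Cxcl11 (0.996), Nf1 (0.993) and Dusp22 (0.993), and for Rnase1 Scp2 (0.982), Tmem205 (0.979) and Scpep1 (0.978). These are the highest of many values over 6 points, given as a description. All levels share the scaling of their array. The unscaled signal of the brighter Amy2a5 probe spanned 1.04-fold and the percentile used for scaling 1.40-fold. Its level therefore follows mainly that percentile, and so do the levels that match it best. How far Cxcl11, Nf1 and Dusp22 followed the amylase RNA, apart from that scaling, was not tested.

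Other carboxypeptidases and their regulators, 15 of 20 tested, had no called gene in any comparison. In Spink3-/- against Spink3+/+, 6 were higher and 9 lower, with a median of -0.01, from -0.44 for Cpq to 0.30 for Cpxm1. In Spink3-/-XKI/+ against Spink3+/+ the median was -0.01, from -0.75 for Cpa3, the mast cell carboxypeptidase, to 0.52 for Cpxm1, and against Spink3-/- it was 0.00, from -0.70 for Cpb2, the plasma carboxypeptidase made by liver, to 0.36 for Cpz.

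Other secreted ribonucleases with the ribonuclease inhibitor Rnh1, 12 of 19 tested, also had no called gene. Their median was -0.02, 0.05 and 0.06 in the 3 comparisons. The lowest difference in Spink3-/- against Spink3+/+ was -1.18 for Ear2, an eosinophil type ribonuclease, and the highest 0.12 for Rnase10. Rnase4 had levels of 2.69 and 1.96 in Spink3+/+, 2.19 and 1.87 in Spink3-/-, and 3.15 and 3.80 in Spink3-/-XKI/+. Both Spink3-/-XKI/+ arrays were above all others, with a difference of 1.15 (SE 0.34, limma adjusted p = 0.594) from Spink3+/+ and 1.44 (SE 0.34, limma adjusted p = 0.522) from Spink3-/-. Of all tested probes, 41.7% did not overlap in the former comparison and 32.4% in the latter. Rnase2a had the lowest fitted difference in Spink3-/-XKI/+ against either genotype, -0.76 and -0.68 (SE 0.59), but was above background on 3 arrays alone, and Ear2 on 5.

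The other pancreatic digestive enzymes, proteases and lipases that share the granules with the members, had 20 of 23 genes tested and none called. In Spink3-/- against Spink3+/+, 4 were higher and 16 lower with a median of -0.20, from -1.41 for Pnlip, the pancreatic triglyceride lipase, to 0.07 for Ctrb1. In Spink3-/-XKI/+ against Spink3-/-, 19 were higher and 1, Cel, lower by 0.42, with a median of 0.17. Against Spink3+/+ the median of Spink3-/-XKI/+ was 0.03, from -0.56 for Cel, the bile salt activated lipase, to 1.16 for the trypsinogen gene 1810009J06Rik. Pnlip had levels of -0.07 and -0.79 in Spink3+/+, -1.95 and -1.73 in Spink3-/-, and 0.96 and 0.36 in Spink3-/-XKI/+. Its 3 groups did not overlap. Of all tested probes, 32.1% did not overlap in Spink3-/- against Spink3+/+, 41.7% in Spink3-/-XKI/+ against Spink3+/+ and 32.4% in Spink3-/-XKI/+ against Spink3-/-. The share for 3 groups at once was not computed. Pnlip differed by -1.41 (SE 0.32, limma adjusted p = 0.72) in Spink3-/- against Spink3+/+ and by 2.50 (SE 0.32, limma adjusted p = 0.207) in Spink3-/-XKI/+ against Spink3-/-.

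Acinar transcription factors and zymogen granule genes were tested for all 20 genes, with none called. Their medians were -0.08, -0.08 and 0.01. Mecom was lowest in both comparisons with Spink3+/+, at -1.49 and -1.32, though it was above background on 3 arrays alone. Serpini2 was highest in Spink3-/- against Spink3+/+ at 0.31. Gp2, the major granule membrane protein, was highest in Spink3-/-XKI/+ against both, at 0.91 and 1.33, and the muscarinic receptor Chrm3 was lowest against Spink3-/- at -0.82. Of other genes of carbohydrate digestion 3 of 8 were tested and none was called. Slc2a5, the fructose transporter, was lowest in all comparisons, at -0.20, -0.41 and -0.20. The highest was the glucose transporter Slc2a2 at -0.04 in Spink3-/- against Spink3+/+, and the lysosomal glucosidase Gaa in the other comparisons at -0.04 and 0.04.

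The sign of these small medians depended on the scaling. Scaled to the spike-in probes, which moved the median of all tested probes in Spink3-/- against Spink3+/+ from 0.01 to 0.12, that comparison gave medians of 0.10 for the other carboxypeptidases, 0.09 for the ribonucleases, 0.04 for carbohydrate digestion and 0.04 for the acinar factors. The other digestive enzymes stayed below 0, at -0.09, with 7 higher and 13 lower. In Spink3-/-XKI/+ against Spink3-/- they had 13 higher and 7 lower with spike-in scaling, with a median of 0.10, in place of 19 and 1.

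**Figure D4:**
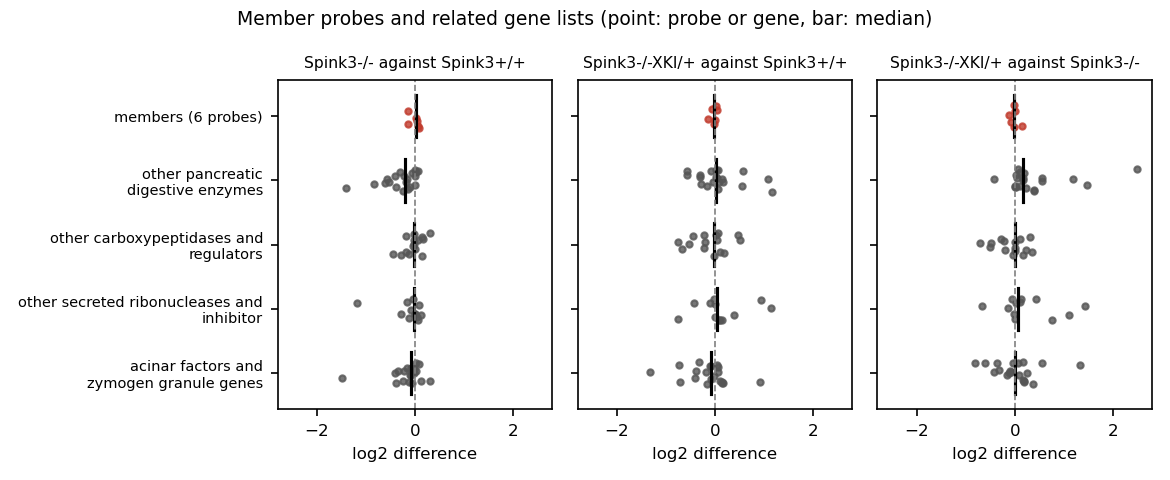
Log2 difference (horizontal axis) of the 6 member probes in red and of the tested genes of 4 related lists in grey (rows), in the 3 comparisons (panels); each point is a probe or gene and each bar a median. The member probes stay between -0.15 and 0.15, and the widest point is Pnlip at 2.50 in Spink3-/-XKI/+ against Spink3-/-.

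Further probes in the amylase region of chromosome 3 were looked up after the values had been seen. A probe named TC1733495, similar to rat amylase, at chr3:112985269-112985328 (mm9, minus strand), read 10.31 and 10.49 in Spink3+/+, 10.18 and 10.67 in Spink3-/-, and 10.35 and 10.64 in Spink3-/-XKI/+, and its groups overlapped. A probe named TC1637047 and described as amylase 2, at chr3:112950327-112950386 on the minus strand, read 3.17 and 3.00, 3.84 and 3.38, and 2.41 and 2.46 in the same order. Its groups did not overlap, with a difference of -1.18 (SE 0.21, limma adjusted p = 0.364) in Spink3-/-XKI/+ against Spink3-/-. In that comparison 32.4% of all tested probes did not overlap, and the share for 3 groups at once was not computed. The Amy2a4 probe, at chr3:113083089-113083148 on the minus strand, read 0.94 and 0.99, 1.25 and 0.49, and 0.08 and -0.48. Both Spink3-/-XKI/+ arrays were lowest, with a difference of -1.16 from Spink3+/+ (SE 0.32, limma adjusted p = 0.563), a comparison in which 41.7% of all tested probes did not overlap. None of these probes was called.

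Markers of the cell types in the organ were read beside the members, each as the log2 of the summed signal of a list. The acinar list, which includes Cpa1, Cpb1 and Amy2a5, was tested for 10 of 10 genes and summed to 13.27 to 13.47 in Spink3+/+, 13.12 to 13.51 in Spink3-/- and 13.35 on both Spink3-/-XKI/+ arrays. Its genes, each counted equally, had a median of -0.28 in Spink3-/- against Spink3+/+, with 3 higher and 7 lower, and of -0.02 in Spink3-/-XKI/+ against Spink3+/+. The first of these medians stayed below 0 with other scalings, from -0.32 with quantile normalization to -0.16 with spike-in scaling. The liver list, also 10 of 10, summed to 5.75 to 6.11, 6.67 to 6.72 and 5.97 to 6.19, and 10 of its 10 genes were higher in Spink3-/- than in Spink3+/+, with a median of 1.53 and none called. The erythroid list, 5 of 7 tested, had medians of -0.66 in Spink3-/- and -1.41 in Spink3-/-XKI/+ against Spink3+/+, and the striated muscle list, 5 of 8, had 0.42 and 1.29. Medians against Spink3+/+ in the same order were 0.43 and 0.42 for macrophages, 0.15 and 0.11 for ducts, 0.04 and 0.19 for islets, -0.27 and -0.10 for endothelium, and -0.03 and -0.08 for mast cells. No gene of these lists was called, and their part in the member values was not tested.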

How the data were processed

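The 6 whole-pancreas RNA samples, 1 single-colour array each, were grouped by the genotype in the labels. The deposited values are intensity values on a linear scale, background-subtracted and detrended by Agilent Feature Extraction 10.7.3.1 per the submitters' processing notes and the file headers, with no scaling between arrays. The values of the series as a whole were identical to them at every spot. No spot was saturated, and 42.4% to 50.8% of spots were well above background.

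Control and outlier spots were left out, log2 was taken, each array's 75th percentile was subtracted and spots of a probe were averaged. Tests were run on probes well above background on all arrays of some genotype, which kept 24820 of 55681 probes (44.6%). For gene names, a RefSeq list matched 26762 probes by accession, 3819 by current symbol and 639 by old symbol. The file's own name was kept for 1873 probes, and 22588 had no name.

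All 6 arrays entered 1 fit with limma 3.58.1 in R 4.3.3 (lmFit and eBayes, two-sided, no covariates, 3 residual degrees of freedom). The code was checked on simulated data with the same independent noise for every probe. Such data lack slide rows and unequal spread, so they do not test how stable the calls are here. P-values were adjusted by Benjamini-Hochberg over all tested probes, and a probe was called under 0.05. Tables were read with pandas 2.3.3 and the R package data.table, version 1.17.8, and figures drawn with matplotlib 3.10.9 in Python 3.11.15.

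Every member probe is described. Of each list, called genes are named, or else those with the highest and lowest difference, and a gene with several probes is represented by its brightest. For each member the 3 genes with the highest r are named, except 1 of Cpb1 that is not reported here. Pnlip, Rnase4 and the additional amylase probes are given in more detail after their values were seen. The members and lists were chosen with earlier results of these data known. Alternatives were other scalings, background correction, filters, units, sample sets, blocks by slide row or replicate number, and leaving out each array.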

Additional observations from a re-analysis of the deposited data

How the results depend on the processing

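No member probe was called under any of the 11 alternatives other than leaving out an array, 1 of which fits the compared genotypes alone, or on leaving out any array. Over the 5 member genes, each by its brighter probe, the lowest limma adjusted p was 0.789 under the former and 0.675 under the latter. The 165 values under the former ran from -0.58, for Cpa1 in Spink3-/-XKI/+ against Spink3+/+ with slide row as a block, to 0.24, for Rnase1 in the same fit. Other filters, the unit of 1 probe per gene, the replicate block, the series values and the compared genotypes alone leave each difference unchanged by construction. Only the other scalings, the background correction and slide row could change a sign. Of the 165 values 17 changed sign, all of differences that missed the threshold, and the cause was not tested. In Spink3-/- against Spink3+/+ these were Cpa1 at -0.0044 with the percentile taken over probes above background on all arrays, Rnase1 at -0.015 with quantile normalization, and Cpa1 at -0.25, Amy1 at -0.084 and Amy2a5 at -0.21 with slide row as a block. For Spink3-/-XKI/+ against Spink3+/+ they were Amy1 at 0.029 with spike-in scaling and 0.0068 with normexp, Amy2a5 at -0.027 with the percentile over probes above background and -0.48 with slide row, and Rnase1 at -0.027 with quantile normalization. For Spink3-/-XKI/+ against Spink3-/- they were Cpb1 at -0.0076 (quantile), -0.021 (percentile over probes above background), -0.062 (spike-in) and -0.013 (slide row), Amy2a5 at 0.016 (normexp), and Rnase1 at 0.018 (normexp) and 0.085 (slide row).

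Leaving out 1 array at a time, the difference in Spink3-/- against Spink3+/+ ran from -0.25 to 0.28 for Cpa1, -0.084 to 0.27 for Amy1, -0.21 to 0.29 for Amy2a5, -0.18 to 0.30 for Rnase1 and -0.23 to -0.05 for Cpb1. Between Spink3-/-XKI/+ and Spink3+/+ it ran from -0.20 to 0.10 for Cpa1, -0.35 to 0.074 for Cpb1, -0.12 to 0.15 for Amy2a5 and -0.24 to 0.34 for Rnase1. Between Spink3-/-XKI/+ and Spink3-/- it ran from -0.33 to 0.20 for Cpa1, -0.21 to 0.21 for Cpb1, -0.29 to 0.064 for Amy1, -0.27 to 0.23 for Amy2a5 and -0.30 to 0.28 for Rnase1. A genotype left with 1 array is assumed to vary like the others.

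The count over all probes, 11, 2 and 0 in the same order, was less stable. In Spink3-/- against Spink3+/+ it was 2 with the percentile over probes above background, 1 with normexp, 0 without a filter, 1 with probes above background on all arrays, 5 by gene, 0 with slide row and 1 with the 2 genotypes alone. Comparing Spink3-/-XKI/+ with Spink3+/+, it was 14 with quantile normalization, 13 with spike-in scaling, 0 without a filter, 1 with probes above background on all arrays, 1 by gene and 0 with slide row. Comparing Spink3-/-XKI/+ with Spink3-/-, it was 9 with quantile normalization, 7 with spike-in scaling and 1 by gene. Leaving out an array gave 0 to 835, 0 to 873 and 0 to 831. Without a compared array the count was 490 or more, except without replicate 2 of Spink3-/-XKI/+, where it was 0 in both of its comparisons. Without an array of the third genotype it was 0 or 1.

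With the replicate block, which takes arrays of equal replicate number as paired, the counts were 1, 2 and 0. The deviations of equally numbered arrays correlated over probes at -0.04, 0.01 and 0.19. With 2 arrays per genotype, these values cannot show whether the numbers pair the samples.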
